A study of Mus musculus with 32 samples.

Results

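The genes described here are the cytokines of the IL-6, IL-12 and IL-10 axis in mouse macrophages: Il6, Il12a, Il12b, Il23a, Il27, Ebi3, Osm, Lif, Il10 and the receptor gene Il10ra. They were chosen by name, as the rows of the count table whose Ensembl identifiers map to these symbols, and all 10 were found among 56953 genes. The libraries were bulk messenger RNA from macrophages grown from the bone marrow of mice aged 8 to 12 weeks, on a C57BL/6J background, in medium with M-CSF from L929 cells. Cells were labelled Acod1 WT or Acod1 KO (Irg1+/+ and Irg1-/- mice in the older name of the gene) and were left untreated or given 100 nM dexamethasone, 100 ng LPS or both for 24 h. That makes 8 groups of 4 libraries. Whether the libraries of 1 group stem from different animals or cultures is not stated in the labels, and the p-values then rest on a library-to-library spread that may be technical. The labels give C57BL/6J or Irg1+/+ mice as sources and do not tie either to the WT libraries. Acod1 makes itaconate, dexamethasone is a synthetic glucocorticoid, and LPS is a bacterial component sensed through TLR4. The series asked how glucocorticoids act on LPS-treated macrophages and whether this differs in the knockout.

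Interleukin-6, oncostatin M and LIF are ligands that signal through the shared receptor chain gp130. The interleukin-12 family are heterodimers: Il12a (p35) with Il12b (p40) forms IL-12, Il23a (p19) with Il12b forms IL-23, and Il27 (p28) with Ebi3 forms IL-27. Interleukin-10, made by activated macrophages, acts back on them through Il10ra and Il10rb to restrain inflammatory cytokine genes, and glucocorticoids are known to repress many of these genes.

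The stretches of promoter before 3 of the genes are shown because Il6 and Il12b were the tested members lowered most by dexamethasone in LPS-treated WT cells, and Ebi3 was among those lowered least. They are the 250 bases before the start site, from RefSeq on build GRCm38.p6, all on the plus strand. The promoter table held 5 of the 10 genes (Il6, Il12a, Il12b, Ebi3 and Lif). Capitals mark matches to the motifs searched.
Il6, chr5:30012864-30013113: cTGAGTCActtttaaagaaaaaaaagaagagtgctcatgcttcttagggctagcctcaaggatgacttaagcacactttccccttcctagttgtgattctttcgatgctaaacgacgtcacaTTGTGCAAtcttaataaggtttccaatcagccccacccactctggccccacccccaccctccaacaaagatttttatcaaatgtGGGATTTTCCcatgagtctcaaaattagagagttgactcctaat
Il12b, chr11:44399813-44400062: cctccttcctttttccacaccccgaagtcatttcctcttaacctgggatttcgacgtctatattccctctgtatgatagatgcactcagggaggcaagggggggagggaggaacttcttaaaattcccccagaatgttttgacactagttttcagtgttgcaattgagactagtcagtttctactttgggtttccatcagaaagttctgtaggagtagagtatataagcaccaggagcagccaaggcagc
Ebi3, chr17:55952373-55952622: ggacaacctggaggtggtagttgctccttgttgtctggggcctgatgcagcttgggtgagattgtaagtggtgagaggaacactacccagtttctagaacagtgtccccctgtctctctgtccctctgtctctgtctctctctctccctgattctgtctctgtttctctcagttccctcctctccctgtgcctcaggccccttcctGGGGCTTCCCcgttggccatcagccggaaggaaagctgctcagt
The search covered both strands of 300 bases, 250 before the start site and 50 after it. The motifs were the kappaB decamer, the C/EBP letters TTGNNCAA, the AP-1 letters TGANTCA, the TATA letters TATAAA, the interferon response element and the glucocorticoid receptor site. Il6 held a kappaB decamer starting 44 bases before the start site, TTGTGCAA starting 128 bases before it and TGAGTCA starting 249 bases before it, and none of these overlap. Ebi3 held a kappaB decamer, also starting 44 bases before its start site. Lif held an AP-1 match starting 228 bases before the start, and the windows of Il12b and Il12a held no exact match to the motifs searched. Sites that differ from these letters were not searched for, so a window without a match may still hold such sites. Over 32851 promoters of the same length, 4.51% held the kappaB decamer, 6.4% the C/EBP letters, 7.81% the AP-1 letters, 13.6% the TATA letters, 3.44% the interferon response element and 0.0396% the glucocorticoid receptor site.

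Library totals ran from 17559079 to 25049200 counts. In the headers of the count table all WT libraries come from sequencing lane 3, while the KO libraries given LPS, with or without dexamethasone, all come from lane 2. Of the KO libraries without LPS, 3 of the 4 given dexamethasone and 3 of the 4 KO controls come from lane 3, and the header calls 1 KO control merged, with no lane. KO against WT under LPS therefore cannot be told apart from the lane, and LPS against no LPS in KO also crosses lanes, whereas the dexamethasone effect under LPS lies within 1 lane in each genotype. Macrophage markers (8 genes, led by Lyz2) summed to between 17810 and 31660 CPM in every library. The 7 T and NK cell markers summed to at most 0.353 CPM, with Cd3e and Nkg7 at 0 in all libraries, the 5 B cell markers to at most 2.6, the 5 mast cell markers to at most 1.15 (Fcer1a and Mcpt4 at 0), the 5 neutrophil markers to at most 2.84 and the 5 fibroblast markers to at most 3.23 CPM. The 6 dendritic cell markers varied with treatment, from 0.953 to 1.69 CPM in the controls to 9.31 to 13.9 CPM with LPS and 13.8 to 17.3 CPM with dexamethasone. Mostly 1 gene made up each raised sum. It was Ccr7 with LPS (mean 10.2 CPM in WT, 11.6 in KO) and Flt3 with dexamethasone alone (15.4 and 13.7). Acod1 counts were not lost in libraries labelled KO. In KO against WT Acod1 stood at 5.82 ± 0.747 against 9.89 ± 1.26 CPM in control (SD, n = 4), 4995 ± 133.2 against 6483 ± 248.8 with LPS, and 3933 ± 195.2 against 2738 ± 34.8 with LPS and dexamethasone. The removed part of Acod1 is not named in the labels, so counts over the whole gene do not check the label, and WT and KO below mean the libraries so labelled. WT LPS library 3 stood apart from the other libraries of its group, with a chi-square per degree of freedom of 16.1 to 16.7 against each, beside at most 5.57 for every other pair of 1 group, and it was the highest of its group for Il6, Ebi3 and Osm. Without it the dexamethasone effect under LPS in WT was -3.42 for Il6, -1.86 for Osm and -0.33 for Ebi3, and its difference between genotypes was 2.82, 1.34 and 0.15, of which the Ebi3 value was no longer called.

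Counts were scaled to CPM, a gene's share of its library's TMM-adjusted total, and tested with edgeR's quasi-likelihood test over 14427 genes, with adjusted p (Benjamini-Hochberg) under 0.05 as a call. Il23a and Lif did not pass the filter on low counts, so 8 of the 10 genes were tested. Their levels in every library are shown in the plot by treatment. In bulk RNA, fewer cells of a type and less RNA per cell cannot be told apart.

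**Figure D1:**
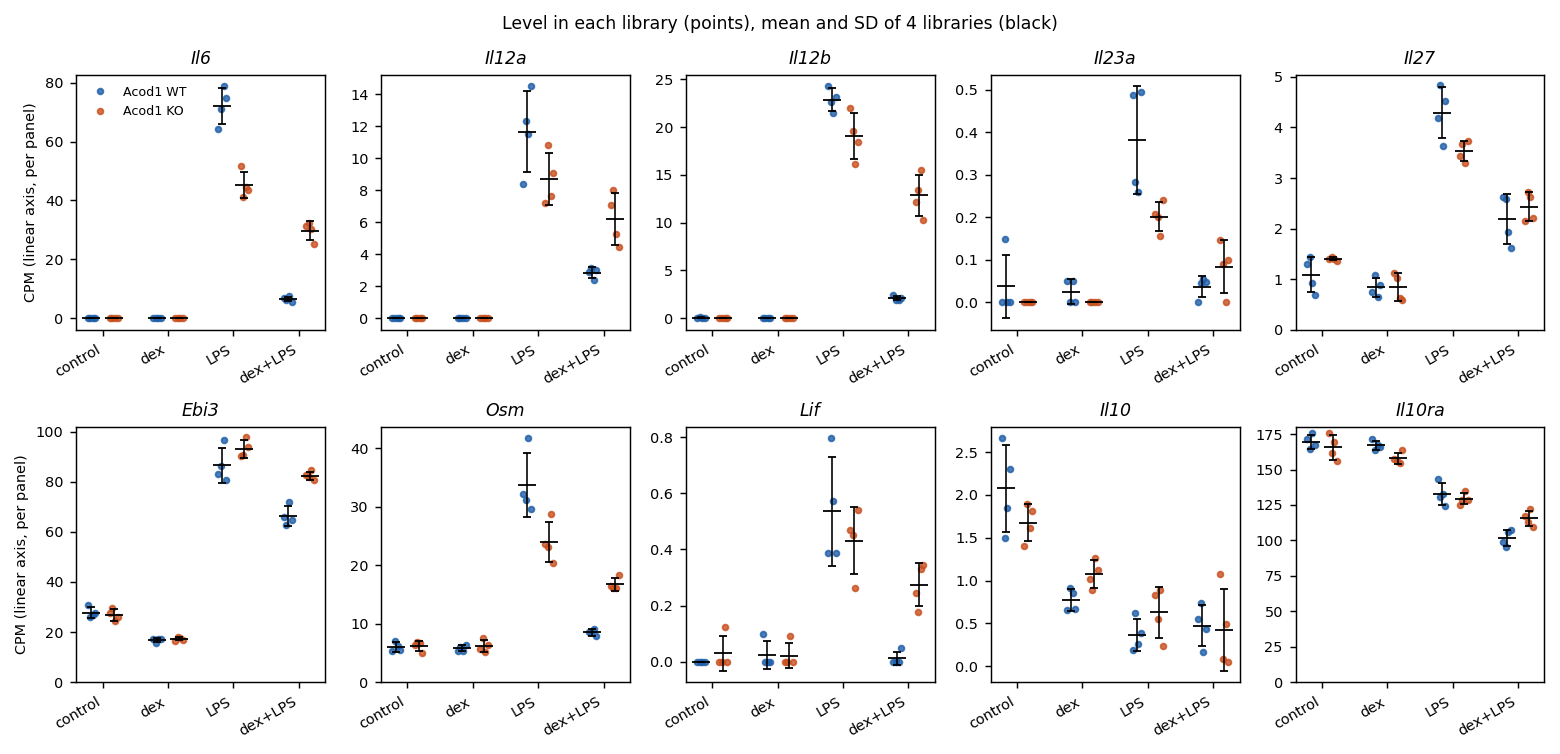
Level of each of the 10 genes in CPM (linear axis, its own range in each panel) by treatment, with WT in blue and KO in orange; points are libraries, black marks the mean and SD of 4 libraries. Il6 is near 0 without LPS, at 64.4 to 78.8 CPM with LPS in WT, and at 5.53 to 7.45 CPM in WT but 25.1 to 32.3 CPM in KO once dexamethasone is added.

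LPS switched on most of the cytokine genes and lowered Il10 and its receptor in both genotypes. In WT, 6 of the 8 tested genes rose and 2 fell, where 37.4% of all tested genes rose and 38.3% fell. In KO the counts were also 6 and 2, beside 36.8% and 39.3% of all tested genes. Il6, Il12a and Il12b, counted among the risers, had at most 3 counts over any group without LPS. They passed the filter on low counts only through groups with LPS, so their rise was given once they were tested. The genotypes share no libraries, but every LPS effect within a genotype uses the same control libraries as the dexamethasone effect.

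Il6 (ENSMUSG00000025746.12) lies at chr5:30218112-30224979 on the plus strand, in the coordinates of the deposited table (GENCODE vM32), which are used for all gene positions, and it encodes the founding gp130 ligand. In control libraries its total count was 3 over the 4 WT libraries and 0 over the KO libraries. With LPS the WT libraries read 64.4, 71.0, 78.8 and 74.7 CPM, and the KO libraries 51.6, 41.2, 44.5 and 43.5 CPM. The KO libraries all lay below the WT libraries. Against 3 control counts the WT rise was 1877-fold (95% counting interval 642 to 9104), and in KO, with no control counts, it was at least 1385-fold (against 3 counts over the group). Counting intervals and floors here cover counting error only.

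Osm (ENSMUSG00000058755.4, chr11:4186420-4191026, plus strand), encoding oncostatin M, was present without LPS. WT controls read 5.31, 7.11, 6.21 and 5.45 CPM, and KO controls 6.41, 6.88, 6.65 and 4.92 CPM. With LPS the WT libraries read 32.2, 31.1, 41.8 and 29.6 CPM and the KO libraries 23.7, 23.1, 28.7 and 20.4 CPM, so every LPS library stood above every control and every KO library below the WT range. The log2 rise was 2.48 ± 0.11 in WT (SE, adjusted p = 2.0e-25, edgeR) and 1.96 ± 0.11 in KO (adjusted p = 2.7e-21).
The difference between these rises, -0.52 ± 0.16, missed the threshold (adjusted p = 0.0629, edgeR). It passed with no filter on low counts (-0.52, adjusted p = 0.0103) and when any 1 of 5 libraries was left out: KO control 4 (-0.63), KO LPS 3 (-0.62), WT control 2 (-0.61), WT LPS 2 (-0.56) or WT LPS 4 (-0.58).

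Lif (ENSMUSG00000034394.15, chr11:4207557-4222514, plus strand), encoding leukaemia inhibitory factor, stayed scarce. It had 0 counts over the WT controls and 3 over the KO controls, and 40 and 32 counts over the WT and KO libraries given LPS. That is at least 13.8-fold higher in WT, and 13.1-fold in KO (95% counting interval 4.1 to 66.9). WT libraries with LPS read between 0.386 and 0.795 CPM and KO libraries between 0.262 and 0.542 CPM, so the genotypes overlapped. Osm and Lif are neighbours on chromosome 11, 16530 bases apart in the deposited coordinates.

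The subunits of IL-12 came on from near 0 with LPS. Il12a (ENSMUSG00000027776.13, chr3:68597977-68605880, plus strand) had no counts in any library without LPS. It then read 8.37, 12.3, 11.5 and 14.5 CPM in WT and 7.19, 10.8, 7.66 and 9.09 CPM in KO, at least 301-fold and at least 266-fold higher, with overlapping genotypes. Il12b (ENSMUSG00000004296.15, chr11:44290890-44304860, plus strand), which encodes the shared p40 chain, had 3 counts over the WT controls and 0 over the KO controls. It read 24.3, 22.6, 21.5 and 23.2 CPM with LPS in WT, 597-fold higher (95% counting interval 204 to 2896). In KO it read 22, 19.6, 16.2 and 18.4 CPM, at least 584-fold higher.
Il23a (ENSMUSG00000025383.3, chr10:128132008-128134621, minus strand), the p19 chain of IL-23, stayed low throughout. Its LPS libraries read 0.487, 0.284, 0.26 and 0.496 CPM in WT and 0.208, 0.201, 0.157 and 0.241 CPM in KO. The total of 29 counts in WT was 10.0-fold higher than in control (95% counting interval 3.1 to 51.3), and the 15 counts in KO, against 0, were at least 6.15-fold higher. Per kilobase of exon, Il12b had the most messenger RNA with LPS in WT, at 11.6 ± 0.592 CPM per kb, beside 6.58 ± 1.43 for Il12a and 0.17 ± 0.0565 for Il23a.

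The IL-27 subunits were expressed before LPS and rose less. Il27 (ENSMUSG00000044701.6, chr7:126188182-126194113, minus strand) encodes p28. It read 1.3, 1.45, 0.924 and 0.694 CPM in WT control and 4.18, 4.83, 3.64 and 4.52 CPM with LPS, a log2 rise of 1.96 ± 0.20 (adjusted p = 3.1e-12, edgeR). In KO it went from 1.4, 1.45, 1.4 and 1.37 CPM to 3.44, 3.68, 3.3 and 3.73 CPM, a log2 rise of 1.33 ± 0.19 (adjusted p = 3.2e-08, edgeR). Neither genotype's LPS range overlapped its control range.
Ebi3 (ENSMUSG00000003206.8, chr17:56259640-56264022, plus strand) read 30.7, 26, 26.9 and 27.6 CPM in WT control and 83.0, 86.1, 96.5 and 80.6 CPM with LPS. The KO libraries read 27.5, 29.7, 24.3 and 25.9 CPM, then 90.3, 90.7, 97.8 and 93.7 CPM. Its log2 rise was 1.64 ± 0.056 in WT and 1.80 ± 0.055 in KO (adjusted p = 1.6e-30 and 1.5e-32, edgeR), and the LPS libraries of the genotypes overlapped. Per kilobase, Ebi3 stood at 75.0 ± 6.06 CPM per kb and Il27 at 4.2 ± 0.496 CPM per kb in WT with LPS. Messenger RNA of Ebi3 thus far exceeded that of its partner, and protein was not measured.
Exons of Il27 share 103 bases with Apobr on the opposite strand, and those of Ebi3 share 270 bases with Gm16712. Reads were counted without regard to strand, so reads from those bases cannot be told apart. Apobr had a log2 LPS effect of 0.22 ± 0.034 in WT and 0.035 ± 0.034 in KO, at 137.2 and 135.0 CPM in the controls. Gm16712 had an LPS effect of 1.44 ± 0.22 and 1.11 ± 0.22, at 1.52 and 1.55 CPM in the controls. Their part in the values of Il27 and Ebi3 was not tested.

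Il10 (ENSMUSG00000016529.6, chr1:130947582-130952711, plus strand) ran the other way. WT controls read 2.66, 1.5, 1.85 and 2.3 CPM and WT libraries with LPS 0.195, 0.625, 0.26 and 0.386 CPM, a log2 fall of 2.51 with SE 0.41 (adjusted p = 3.9e-07, edgeR). KO controls read 1.4, 1.89, 1.61 and 1.81 CPM and KO libraries with LPS 0.833, 0.554, 0.892 and 0.241 CPM, a log2 fall of 1.39 with SE 0.37 (adjusted p = 8.8e-04, edgeR). In neither genotype did the ranges overlap. With a lane term and the merged KO control left out, the KO change was -1.55 and missed the threshold (adjusted p = 0.0619), while leaving out that library alone gave -1.46 (adjusted p = 9.5e-04). The difference of the falls, 1.12 ± 0.58, did not pass (adjusted p = 0.376, edgeR). Il10ra (ENSMUSG00000032089.17, chr9:45165135-45180447, minus strand), the ligand-binding chain of the interleukin-10 receptor, was the most abundant member per kilobase in WT control, at 48.5 CPM per kb. It fell from 169.7 ± 4.94 to 132.8 ± 7.73 CPM in WT and from 165.6 ± 8.85 to 129.5 ± 4.06 CPM in KO, by 0.35 on the log2 scale in each (adjusted p = 1.0e-10 and 8.5e-11, edgeR).

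With dexamethasone alone, a fall was called for Ebi3 in both genotypes, for Il10 in WT and for Il27 in KO. Whether this effect differed between genotypes was not tested. KO against WT with dexamethasone was not called for Il10 (0.47 ± 0.38, adjusted p = 0.73, edgeR) or Il27 (-0.033 ± 0.26, adjusted p = 0.993, edgeR). No member rose and 2 fell in each genotype. Of all tested genes 21.2% were higher and 28.2% lower in WT, and 20.9% higher and 27.6% lower in KO. The 2 falls among 8 tested members are near these shares. Il6, Il12a and Il12b, however, were too near 0 in control to fall. The dendritic cell marker sum, led by Flt3, was 16.1 to 17.3 CPM in WT and 13.8 to 15.6 CPM in KO in these libraries, and its part in the result was not tested. Ebi3 fell to 17.4, 15.8, 17.2 and 17.2 CPM in WT and 16.6, 18.2, 17.7 and 17 CPM in KO. The log2 falls were 0.72 with SE 0.066 and 0.62 with SE 0.065 (adjusted p = 1.8e-13 and 1.1e-11, edgeR), and no treated library overlapped a control.
Il10 fell in WT, to 0.655, 0.919, 0.851 and 0.669 CPM, by 1.41 on the log2 scale with SE 0.35 (adjusted p = 6.6e-04, edgeR). In KO it read 1.02, 0.887, 1.27 and 1.13 CPM, below every KO control, with a log2 change of -0.64 ± 0.34 that did not pass (adjusted p = 0.115, edgeR), but did when the compared groups were fitted alone (-0.61, adjusted p = 0.0277). Il27 fell in KO by 0.74 on the log2 scale with SE 0.24 (adjusted p = 0.00808, edgeR), though not with a lane term and the merged KO control left out (-0.61, adjusted p = 0.0642; -0.75, adjusted p = 0.014 with that library left out alone), and its WT change of -0.36 ± 0.25 did not pass. Osm stood at 5.8 ± 0.542 CPM in WT and 6.2 ± 1.06 in KO, inside the control ranges apart from 1 WT and 1 KO library (5.29 and 7.61 CPM). Il6, Il12a and Il12b had at most 1 count over any group given dexamethasone alone, a level from which no fall could be detected.

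When dexamethasone was given with LPS, Il6, Il12a, Il12b and Osm fell steeply in WT and less in KO. In WT none of the 8 tested genes rose and 7 fell, beside 34.6% of all tested genes higher and 34.5% lower. In KO none rose and 7 fell as well, beside 20.8% higher and 17.3% lower. The exception in each was Il10. The sizes differed: the KO-minus-WT difference of the dexamethasone effect under LPS was positive and called for 6 genes (Il6, Il12a, Il12b, Ebi3, Osm and Il10ra) and negative and called for none, beside 23.9% and 21.5% of all tested genes.

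Il6 read 6.87, 6.28, 7.45 and 5.53 CPM in WT with LPS and dexamethasone, far below the 64.4 CPM of the lowest WT library given LPS alone. The KO libraries read 31.4, 32.3, 30.3 and 25.1 CPM, below their own LPS range of 41.2 to 51.6 but above every treated WT library. The log2 fall was 3.47 with SE 0.093 in WT (adjusted p = 1.9e-31, edgeR) and 0.60 with SE 0.078 in KO (adjusted p = 2.3e-08, edgeR). The difference was 2.87 ± 0.12 (adjusted p = 3.8e-23, edgeR). On average 9.04% ± 1.14 (SD, n = 4) of the LPS level was left in WT and 65.9% ± 7.09 in KO. The SDs of such shares, here and below, cover the libraries with both treatments only. The mean with LPS alone was taken as fixed.

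Osm read 8.59, 8.54, 9.18 and 7.83 CPM in WT and 16.4, 16.1, 16.1 and 18.4 CPM in KO, with no overlap between genotypes or with LPS alone. It fell by 1.98 on the log2 scale with SE 0.11 in WT and by 0.52 with SE 0.10 in KO (adjusted p = 3.0e-22 and 2.8e-05, edgeR). The difference was 1.46 ± 0.15 (adjusted p = 5.8e-12, edgeR).
For Osm the dexamethasone effect depended on LPS: with LPS it was lower than without it by a log2 interaction of -1.93 ± 0.17 in WT (adjusted p = 9.5e-14, edgeR) and -0.53 ± 0.17 in KO (adjusted p = 0.00823, edgeR). Without KO dexamethasone library 2 the KO interaction was -0.41 (adjusted p = 0.0502). Lif had 1 count over the WT libraries and 22 over the KO libraries given LPS with dexamethasone. The WT level was 42.6-fold lower than with LPS alone (95% counting interval 7.22 to 1723), and the KO level was 21.8-fold higher than the WT level (3.52 to 899). KO libraries read 0.246, 0.179, 0.329 and 0.345 CPM, overlapping LPS alone. 

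Il12b read 2.38, 1.94, 1.94 and 2.15 CPM in WT with LPS and dexamethasone and 12.2, 13.4, 15.5 and 10.3 CPM in KO. All KO libraries lay between the treated WT libraries and the KO libraries given LPS alone. The p40 gene fell by 3.44 on the log2 scale with SE 0.13 in WT and by 0.57 with SE 0.10 in KO (adjusted p = 1.5e-25 and 1.6e-05, edgeR). The difference was 2.87 ± 0.17 (adjusted p = 5.4e-18, edgeR).
Il12a read 2.88, 3.14, 2.38 and 3.03 CPM in WT and 7.08, 8.01, 5.26 and 4.44 CPM in KO, where it overlapped LPS alone. It fell by 2.02 on the log2 scale with SE 0.18 in WT (adjusted p = 2.1e-12, edgeR), and the difference between genotypes was 1.54 ± 0.25 (adjusted p = 2.6e-06, edgeR). The KO fall of 0.48 with SE 0.17 (adjusted p = 0.0206, edgeR) no longer passed without KO LPS-and-dexamethasone library 3 (-0.41, adjusted p = 0.0721) or 4 (-0.35, adjusted p = 0.121), or without KO LPS library 2 (-0.35, adjusted p = 0.127).
Il23a had 3 counts in WT and 7 in KO, that is 10.3-fold lower than with LPS alone in WT (95% counting interval 3.19 to 52.8), and the KO to WT ratio of 2.31 (0.528 to 13.9) was not distinguishable from equal at this depth.

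In WT the IL-27 subunits moved least among the induced genes. Il27 read 2.63, 2.58, 1.94 and 1.61 CPM in WT and 2.16, 2.73, 2.63 and 2.22 CPM in KO, with overlapping genotypes. The log2 falls of 0.96 with SE 0.18 in WT and 0.54 with SE 0.18 in KO passed (adjusted p = 6.6e-06 and 0.0162, edgeR), and their difference, 0.43 ± 0.26, did not (adjusted p = 0.182, edgeR). Without KO LPS-and-dexamethasone library 1 the KO change was -0.48 and missed the threshold (adjusted p = 0.0522). Apobr, which shares exon bases with Il27, had effects of -0.34 ± 0.034 and -0.14 ± 0.034 in the same comparisons.
Ebi3 read 65.9, 62.9, 71.9 and 64.8 CPM in WT and 82.6, 81.8, 84.6 and 80.7 CPM in KO, with no overlap. It fell by 0.38 on the log2 scale with SE 0.051 in WT and by 0.18 with SE 0.050 in KO (adjusted p = 4.3e-09 and 0.00377, edgeR). The difference of 0.21 ± 0.071 (adjusted p = 0.0147, edgeR) fell below the call without WT LPS library 3 (0.15, adjusted p = 0.058) and in DESeq2 (0.17, adjusted p = 0.0727). Unlike Osm, Ebi3 was lowered less by dexamethasone in the presence of LPS than in its absence, by 0.34 ± 0.083 in WT and 0.45 ± 0.082 in KO (adjusted p = 4.4e-04 and 1.0e-05, edgeR).

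Il10 itself showed no called dexamethasone effect under LPS, at a depth that limits what could be called. Its totals with LPS alone and with both treatments were 27 and 39 counts in WT and 48 and 34 in KO. WT libraries read 0.556, 0.738, 0.162 and 0.44 CPM, and KO libraries 1.08, 0.0895, 0.494 and 0.0494 CPM. Each group overlapped LPS alone, and the KO libraries spread over a wider range than any other group of this gene relative to their mean. The log2 change was 0.42 ± 0.51 in WT (adjusted p = 0.474, edgeR) and -0.60 ± 0.47 in KO (adjusted p = 0.345, edgeR), and 1 library decided the KO value: without KO library 1 it was -1.66 (adjusted p = 0.0113) and the genotype difference moved from -1.02 ± 0.69 (adjusted p = 0.246) to -2.08 (adjusted p = 0.0135). In WT the dexamethasone effect on Il10 was more negative without LPS than with it, by 1.83 ± 0.62 on the log2 scale (adjusted p = 0.00965, edgeR), a call lost without WT library 2 of the combined treatment (1.53, adjusted p = 0.0507).
Il10ra read 98.7, 95.7, 106.2 and 107.2 CPM in WT and 117.5, 113.3, 122.2 and 109.6 CPM in KO, with no overlap between genotypes. The receptor gene fell by 0.38 on the log2 scale with SE 0.042 in WT and 0.16 with SE 0.042 in KO (adjusted p = 2.8e-11 and 0.00135, edgeR), a difference of 0.22 ± 0.060 (adjusted p = 0.00198, edgeR).

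**Figure D2:**
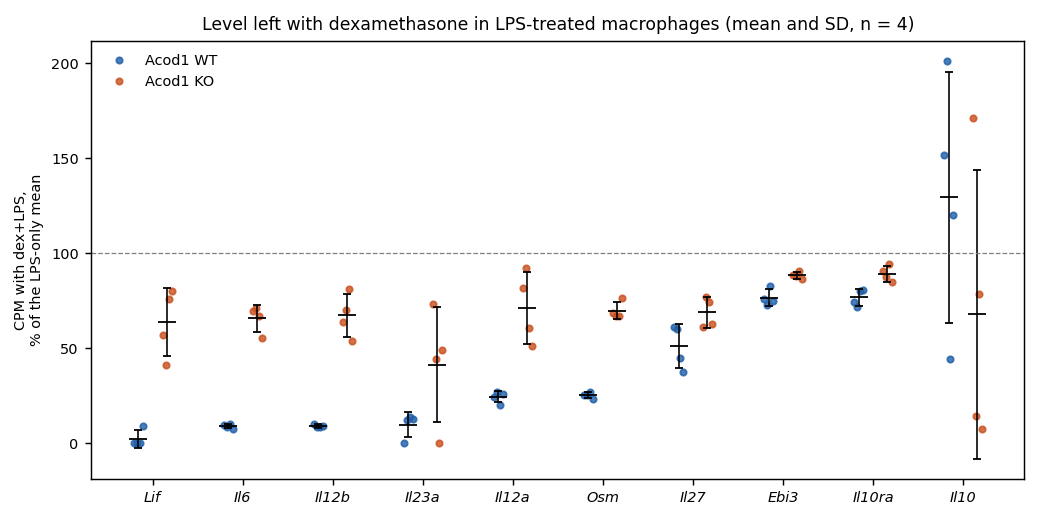
CPM of each library given LPS and dexamethasone as a percent of the mean of the libraries given LPS alone in the same genotype (WT blue, KO orange; black, mean and SD of 4), genes ordered by the WT mean. WT means run from 2.28% for Lif to 76.8% for Il10ra before Il10 at 129.5%. KO means run from 41.5% for Il23a to 89.3% for Il10ra. Those of Lif, Il6, Il12b, Il27, Osm, Il12a and Il10 lie between 63.7% and 71.3%, with an SD of 76.1 percentage points for Il10.

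As the share of the LPS level left, the induced genes ran from 2.28% to 76.7% in WT and 41.5% to 88.5% in KO. Over the libraries with both treatments, Lif rested on 1 count in WT, and Il23a on 3 counts in WT and 7 in KO. Whether the spread differed between genotypes was not tested. In WT the means were 2.28% for Lif, 9.04% for Il6, 9.19% for Il12b, 9.77% for Il23a, 24.5% for Il12a, 25.3% for Osm, 51.1% for Il27 and 76.7% for Ebi3. In KO the values were 63.7% for Lif, 65.9% for Il6, 67.4% for Il12b, 68.9% for Il27, 69.9% for Osm and 71.3% for Il12a, with Il23a at 41.5% and Ebi3 at 88.5%. The KO SDs of these genes, 4.68 to 18.8 percentage points apart from Il23a (30.4) and Ebi3 (1.75), exceed most of the gaps between neighbours, so the KO order is not resolved, with Ebi3 highest of these genes in both genotypes.

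Seen as LPS effects in cells that had dexamethasone, the same libraries show how much induction remained. In WT, 6 of the 8 tested genes rose and 1 fell (Il10ra) relative to dexamethasone alone, beside 35.5% of all tested genes higher and 37.8% lower. In KO, 6 rose and 2 fell (Il10ra and Il10), beside 38.5% and 37.4%. The risers again include Il6, Il12a and Il12b, which passed the filter only through groups with LPS. Il6 was at least 189-fold higher in WT and 2540-fold higher in KO (95% counting interval 455 to 100347, against 1 count). Il12b was 183-fold higher in WT (32.5 to 7285) and at least 363-fold higher in KO, and Il12a at least 83.5-fold and at least 177.9-fold higher. Osm rose by 0.55 ± 0.13 on the log2 scale in WT and by 1.43 ± 0.12 in KO (adjusted p = 1.8e-04 and 1.6e-15, edgeR). Ebi3 rose by 1.98 ± 0.060 and 2.24 ± 0.059, and Il27 by 1.35 ± 0.22 and 1.54 ± 0.22.
The interaction of dexamethasone with LPS was called for 4 genes in WT, 2 in each direction (Ebi3 and Il10 positive, Osm and Il10ra negative; Il27 joined them without WT control library 2, at -0.77, adjusted p = 0.0411), where 32% of all tested genes were positive and 28.4% negative. In KO, 1 was positive (Ebi3) and 1 negative (Osm), beside 25.7% and 16.2%. No interaction can be read for Il6, Il12a and Il12b, whose totals without LPS never exceeded 3 counts over a group.

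Set against each other within a treatment, the genotypes gave calls among the members in the groups with LPS, and most with dexamethasone added. In control no member was called (edgeR; 0 at an unadjusted p under 0.05; DESeq2 0), beside 0.243% of all tested genes higher and 0.298% lower in KO. With dexamethasone alone none was called (1 at an unadjusted p under 0.05; DESeq2 0), beside 0.541% and 0.360%. Il6, Il12a and Il12b had at most 3 counts over any group without LPS, so no genotype difference could be detected for them there. With LPS none was higher and 2 were lower in KO, beside 4.66% and 5.51%. They were Il6, by 0.68 on the log2 scale with SE 0.074 (adjusted p = 7.4e-09, edgeR), and Osm, by 0.49 with SE 0.094 (adjusted p = 2.0e-04, edgeR). Others passed with 1 library left out: Il12a without KO LPS library 2 (-0.55, adjusted p = 0.0375) or WT LPS library 1 (-0.55, adjusted p = 0.0188), Il12b without KO LPS library 1 (-0.34, adjusted p = 0.0404) and Ebi3, higher in KO, without WT LPS library 3 (0.16, adjusted p = 0.0241). With both treatments 6 were higher in KO and none lower, beside 28.5% and 27.9%. They were Il12b (2.61 ± 0.14), Il6 (2.19 ± 0.099), Il12a (1.12 ± 0.19), Osm (0.97 ± 0.11), Ebi3 (0.31 ± 0.051) and Il10ra (0.18 ± 0.042, adjusted p = 2.6e-04, edgeR), with Il27 at 0.15 ± 0.19 and Il10 at -0.19 ± 0.49.
The genotype difference of the LPS effect was called for no member (edgeR; 2 at an unadjusted p under 0.05; DESeq2 0), beside 2.07% and 1.64% of all tested genes. For Il6, Il12a and Il12b this difference cannot be read, as their controls held at most 3 counts over a group. The genotype comparisons under LPS cannot be told apart from the lane. With the merged KO control left out and a lane term, which rests on 1 KO dexamethasone library from lane 2, no member was called with LPS and 2 with both treatments. The difference of the dexamethasone effects, which lies within lanes, gave 7 calls in that fit, and for Il6 it stayed at 2.87.

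Over the 8 groups, Il6, Il12a, Il12b, Osm and Il23a had the order WT with LPS, KO with LPS, KO with both treatments, WT with both treatments among the LPS groups, apart from Il23a, whose WT control mean of 0.0376 CPM lay just above its WT level with both (0.0373). Neighbours in that order did not overlap for Il6 and Osm. For Il12a each of the first 2 groups overlapped the next, and for Il12b only the first pair did. Lif and Il27 had the same order among the LPS groups; the first 3 groups of Lif overlapped in turn, and the genotypes overlapped for Il27 with LPS and with both treatments. Ebi3 was highest in KO with LPS (93.1 ± 3.44 CPM), which overlapped WT with LPS (86.5 ± 6.99). Il10 was highest in the controls, and Il10ra was highest in the 4 groups without LPS, which overlapped in turn.

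The count ratio of Il10 to Il12b in 1 library does not depend on scaling. Its log2 mean was -5.99 ± 0.71 with LPS and -2.26 ± 0.84 with LPS and dexamethasone in WT (SD, n = 4, pseudocount 0.5), with ranges of -6.79 to -5.11 and -3.38 to -1.36. In KO it was -5.00 ± 0.82 and -5.60 ± 1.7, with overlapping ranges. The WT shift of 3.73 and the genotype gap of -3.34 under both treatments had a two-sided exact permutation p = 0.0286, the smallest that 4 against 4 can give, and 0.114 adjusted over 12 comparisons of 3 ratios. The KO shift of -0.60 had an exact permutation p = 0.571. Il12b alone changed by -3.44 on the log2 scale in WT, while Il10 had no called change there (0.42 ± 0.51). Under both treatments KO against WT was 2.61 for Il12b and -0.19 for Il10. The ratio is thus no result apart from that of Il12b, and Il10 held only 1 to 22 counts per library given LPS. The Il27 to Ebi3 ratio changed by -0.60 in WT and -0.36 in KO (exact permutation p = 0.0857 and 0.0286, adjusted 0.229 and 0.114), and the Il23a to Il12a ratio by -0.79 and -0.83 (exact permutation p = 0.143 and 0.2). None of the 12 passed the adjustment.

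**Figure D3:**
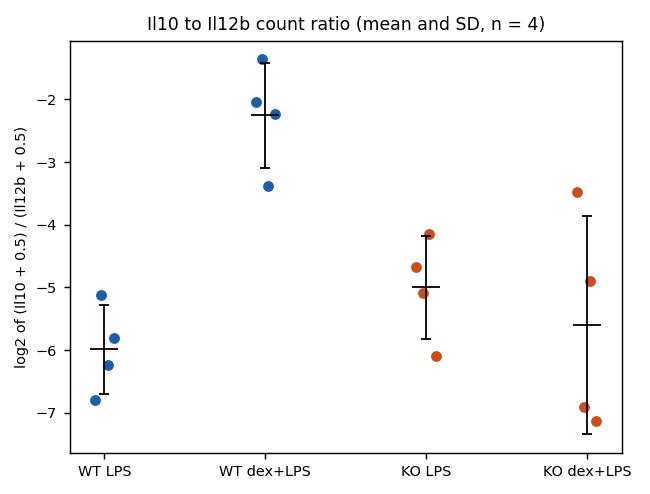
Log2 ratio of Il10 to Il12b counts (0.5 added to each) in each library given LPS, by genotype and dexamethasone, with the mean and SD of 4 in black. WT libraries with both treatments (-3.38 to -1.36) lie above WT libraries with LPS alone (-6.79 to -5.11), and the KO groups overlap. Il10 held 1 to 22 counts per library here.

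Among the receptors and Janus kinases of the pathway, Lifr and Il6ra rose and Il6st and Jak2 fell with dexamethasone under LPS. Of 18 listed genes 14 were tested. In WT, dexamethasone under LPS raised 4, lowered 5 and left 5 without a call, with a median log2 change of -0.14 beside 0.0071 over all genes, and in KO it raised 3 and lowered 4. These shares were near the 34.6% higher and 34.5% lower of all genes in WT, and the 20.8% and 17.3% in KO. Il6st, the gp130 chain used by IL-6, LIF and oncostatin M, went from between 100.6 and 114.0 CPM with LPS to between 52.0 and 56.4 CPM in WT, a log2 fall of 0.99 with SE 0.046, and fell by 0.29 with SE 0.044 in KO. Il6ra, the ligand-binding chain of the IL-6 receptor, rose by 1.04 ± 0.045 in WT and 0.39 ± 0.046 in KO, after LPS had lowered it by 2.37 and 2.17 on the log2 scale.
Lifr, the LIF receptor, went from between 0.633 and 1.32 CPM to between 37.8 and 47.6 CPM in WT, a log2 rise of 5.47 ± 0.16, and rose by 3.22 ± 0.17 in KO. Jak2, a kinase bound to these receptors, fell by 1.15 in WT (SE 0.038) and by 0.33 in KO (SE 0.037). Osmr, the oncostatin M receptor, had reads in so few libraries that it was not tested, with at most 0.12 CPM in any. Il10rb (0.022 ± 0.15 in WT), Il12rb1 (-0.46 ± 0.25) and Il27ra (0.97 ± 0.34, adjusted p = 0.0109, edgeR) are further receptor chains of the members. So are Il12rb2 and Il23r. Il12rb2 rose by 1.75 ± 0.21 in WT and 1.41 ± 0.27 in KO (adjusted p = 4.1e-10 and 2.4e-05, edgeR). Il23r stood at -0.14 ± 0.16 and -0.11 ± 0.16 and was not called. The Il27ra call was lost without WT library 1 of the combined treatment (0.64, adjusted p = 0.121), and Il12rb1 passed without WT LPS library 1 (-0.59, adjusted p = 0.044). Of 10 further ligands of the families only Clcf1, a gp130 cytokine, was tested; it fell in WT by 2.55 with SE 0.37, and its KO change of -0.49 ± 0.31 did not pass.

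Of 15 STATs and feedback inhibitors tested, 4 rose and 9 fell in WT (34.6% and 34.5% of all genes) and 4 rose and 6 fell in KO (20.8% and 17.3%). The genotype difference was positive for 8 and negative for 4 (23.9% and 21.5%). Socs1, an inhibitor of JAK signalling, fell from between 63.0 and 79.4 CPM to between 8.31 and 10.9 CPM in WT (by 2.85 on the log2 scale, SE 0.083) and from between 57.5 and 62.3 CPM to between 39.2 and 45.4 CPM in KO (by 0.46, SE 0.069). Socs3, the inhibitor that binds gp130, fell by 1.20 (SE 0.056) and 0.32 (SE 0.054). Stat3, the main transcription factor of IL-6 and IL-10, fell by 0.59 (SE 0.033) in WT and 0.19 (SE 0.033) in KO. The phosphatases Ptpn6 (1.24 ± 0.043 in WT, 0.45 ± 0.043 in KO) and Ptpn1 (0.71 ± 0.032 and 0.21 ± 0.032) rose. Stat4, used by IL-12, was at -0.085 ± 0.28 and -0.43 ± 0.27 and did not pass.

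All 8 genes listed as targets of interleukin-10 in macrophages fell in WT and 6 fell in KO, with median log2 changes of -1.14 and -0.33, and the genotype difference was positive for 7 and negative for none. Over all genes 34.5% fell in WT and 17.3% in KO, and 23.9% had a positive difference. Il1rn, the interleukin-1 receptor antagonist, fell by 5.05 in WT (SE 0.069) and 0.64 in KO (SE 0.053). Il4ra, a receptor chain for IL-4, fell by 1.52 (SE 0.046) and 0.44 (SE 0.044), and the repressor Etv3 by 1.07 (SE 0.043) and 0.35 (SE 0.042). LPS had raised 7 of the 8 in each genotype while Il10 fell, and Socs3 and Zfp36 stand in another list as well.

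Of 16 transcription factors known at these genes, 5 rose and 10 fell in WT, 1 rose and 8 fell in KO, and the genotype difference was positive for 10 and negative for 4, beside 34.6% and 34.5% of all genes in WT, 20.8% and 17.3% in KO, and 23.9% and 21.5% for the difference. Atf3, a repressor of Il6 and Il12b, fell by 3.71 (SE 0.063) in WT and 0.64 (SE 0.053) in KO. Bhlhe40, a repressor of Il10, fell by 2.58 (SE 0.051) and 0.49 (SE 0.045), and Irf8, an activator of Il12b, by 1.03 (SE 0.037) and 0.38 (SE 0.035). Cebpd rose by 2.59 ± 0.075 and 1.23 ± 0.073. Maf, an activator of Il10, rose in WT by 0.34 ± 0.044 and stood at -0.034 ± 0.043 in KO. Nfkbiz, encoding a co-activator of Il6 and Il12b, did not pass in either genotype (0.092 ± 0.058 and 0.089 ± 0.059), though it did in WT without WT library 2 of the combined treatment (0.14, adjusted p = 0.0339) or WT LPS library 4 (0.14, adjusted p = 0.0427).
Among 8 regulators of messenger RNA decay, 3 rose and 3 fell in WT and 2 rose and 3 fell in KO, beside 34.6% and 34.5% of all genes in WT and 20.8% and 17.3% in KO. Zfp36, which destabilises cytokine messages, fell by 1.45 (SE 0.079) and 0.41 (SE 0.074), Zfp36l1 by 1.55 (SE 0.075) and 0.40 (SE 0.070), and Arid5a, which stabilises Il6 messages, by 1.43 (SE 0.070) and 0.22 (SE 0.066). Elavl1 rose in WT by 0.27 ± 0.043. Zc3h12a, the endonuclease Regnase-1 that degrades Il6 messages, stood at -0.0027 ± 0.045 in WT and rose by 0.17 ± 0.045 in KO. Its genotype difference of 0.17 ± 0.064 (adjusted p = 0.0228, edgeR) was not called with RLE scaling (0.14, adjusted p = 0.0709), in DESeq2 (0.14, adjusted p = 0.0576) or without WT library 2 of the combined treatment (0.15, adjusted p = 0.0596).

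**Figure D4:**
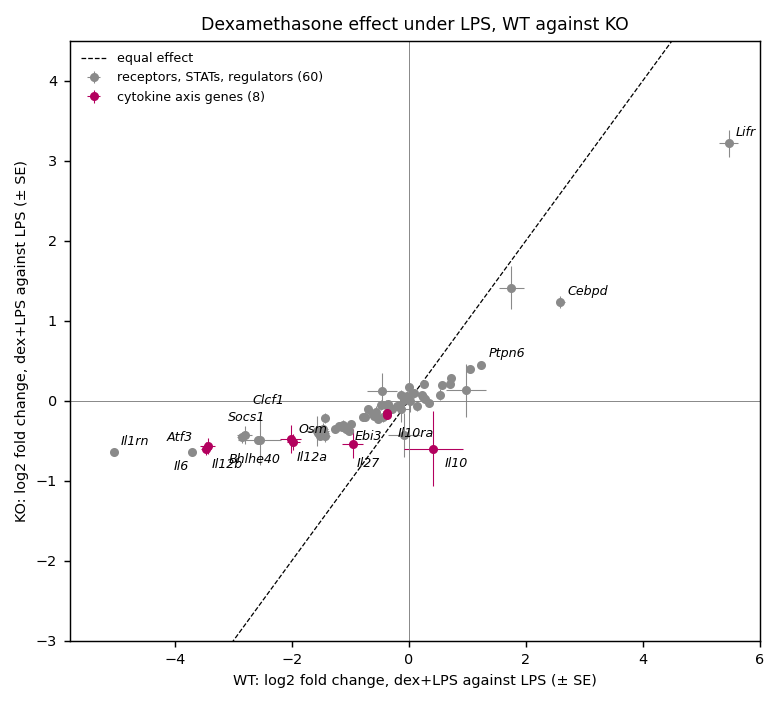
Log2 fold change with SE of dexamethasone under LPS in WT (x axis) and KO (y axis) for the 8 tested members (magenta) and 60 tested genes of the 6 lists (grey); the dashed line marks equal effects. Il6 (-3.47 in WT, -0.60 in KO), Il12b, Il12a and Osm lie far above the line, and Lifr (5.47, 3.22) and Cebpd lie below it.

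Other measures moved with the members. The 6 dendritic cell markers summed to between 9.31 and 11.8 CPM in WT with LPS and 0.708 to 1.27 CPM with both treatments, and in KO to 10.1 to 13.9 and 6.81 to 9.71 CPM, with Ccr7, a migration receptor, the most abundant of the 6 in each of these groups. The neutrophil markers summed to 1.43 to 2.84 CPM and 0.455 to 1.13 CPM in WT, and to 0.629 to 1.61 and 0.934 to 1.61 CPM in KO. The macrophage marker sum was 17810 to 19722 CPM in WT with LPS and 30718 to 31660 with both, and in KO 19088 to 20292 and 22879 to 23571. Their part in the cytokine results was not tested. Fkbp5, a direct glucocorticoid receptor target chosen after its values were seen, rose with dexamethasone under LPS by 5.90 ± 0.070 in WT and 4.68 ± 0.071 in KO, to 680.8 ± 12.1 and 262.3 ± 29.3 CPM, a difference of -1.22 ± 0.11 (adjusted p = 5.3e-13, edgeR). With dexamethasone alone it stood at 877.9 ± 12.8 and 836.4 ± 24.6 CPM.

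Genes outside the set with the most similar course were found by Pearson correlation of mean log2 CPM over the 8 groups. These 8 points share libraries and, for Il6, Il12a and Il12b, fall into groups with and without LPS, so the values describe likeness only. For Il6 the first were Cxcl2 (0.999) and Cxcl1 (0.999), neutrophil-attracting chemokines, and Jade1 (0.999). Cxcl2 went from 1413 to 129.3 CPM with dexamethasone under LPS in WT and from 894.5 to 606.6 CPM in KO. Il12a was most like Rab11fip1, Tnfrsf8 and Nlrp3, the inflammasome sensor, and Il12b most like Shisa3, Ak4 and Gm1720. Osm was most like Crlf2, Golgb1 and Vamp4, Ebi3 most like Wbp2, Ascc3 and Plxna1, and Il27 most like Eef1akmt2, Tardbp and Cars. Of the 24 genes named here, 2 (Cxcl2 and Cars) were also among the first 3 when the 32 libraries were used, and Eef1akmt2 dropped from 0.994 to 0.861. For Il10 the first were Mcu (0.993), Gdap1l1 (0.982) and Hebp2 (0.980), and over the 32 libraries these dropped to 0.756, 0.634 and 0.687. Il10ra was most like Mfge8, which encodes a bridge to apoptotic cells (0.997), Sesn3 and Efhd2.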

How the data were processed

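The deposited table holds raw counts per gene for 32 libraries. Per the file headers the authors counted read pairs over exons with featureCounts 2.0.0, without regard to strand, on the GENCODE mouse annotation vM32. The table also holds exon lengths, used for CPM per kb. The submitters' processing notes name GRCm38, mm10 and the aligner STAR (its version is not given in the sources used here); the start of 0 members in the table equals that in the GRCm38 annotation, so no position is mixed between them. Promoters come from RefSeq on GRCm38.p6.

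Each library's group and number were read from its label (4 libraries in each of 8 groups). Symbols were matched for 52029 of 56953 identifiers, and the rest held 0.846% of counts. Counts were analysed in R 4.3.3 with edgeR 4.0.16 (filterByExpr, TMM, glmQLFit, glmQLFTest) in 1 fit of 8 group means with 24 residual degrees of freedom, and p-values were adjusted by Benjamini-Hochberg over 14427 genes in each of 16 comparisons. A group at 0 counts was set to 3 counts over its libraries for a bound, and ratios to a group of 1 to 3 counts carry an exact 95% counting interval. Ratios were tested by exact permutation with 0.5 added to each count. All 48 pairs of libraries of 1 group differed by more than sampling noise (chi-square per degree of freedom 2.01 to 16.7). The code was tested on simulated data. Alternatives were DESeq2 1.42.0, RLE scaling, no filter, the compared groups alone, a lane term with the merged library left out, lane 3 alone, a replicate block, an adjusted p under 0.01 and each library left out.

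The members and lists were chosen with earlier results of these data known. Named beside the members are, from each list, the 4 genes with the smallest adjusted p for dexamethasone under LPS in WT. Added to these are 12 genes always named, the 3 genes most like each member and, outside the rule, the receptor chains Il12rb2 and Il23r. A gene that this rule names is not reported here.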

Additional observations from a re-analysis of the deposited data

Results flagged for a closer look

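Within a group of 4 libraries, 1 stood apart from the others in 2 of 58 member-by-group sets, and chance flags about 1 set in 20. WT dexamethasone library 2 was lowest for Ebi3, at 15.8 CPM against 17.2 to 17.4 CPM in the other libraries. KO library 4 of the combined treatment was highest for Osm, at 18.4 CPM against 16.1 to 16.4 CPM.

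The dexamethasone effect under LPS differed between genotypes by the test of the difference for 6 members. On the log2 scale, KO minus WT, it was 2.87 for Il6, 2.87 for Il12b, 1.54 for Il12a, 1.46 for Osm, 0.22 for Il10ra and 0.21 for Ebi3.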

How the results depend on the processing

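Of 114 counts of called members under settings other than leaving a library out, 108 stayed within 1.5 times the reported count, as did 154 of 160 with 1 library left out. With the lane term, fitted here and below without the merged KO control, LPS in KO called 5 members, dexamethasone in KO 1, KO against WT 0 with LPS and 2 with both treatments; the KO against WT value of Il6 with LPS became 1.17 ± 2.2 (adjusted p = 0.931). That term could not be fitted with useful precision for genes near 0 without LPS. For the genotype difference of the LPS effect, no filter called 1 member and the replicate block 1 (Osm, -0.52, adjusted p = 0.0424). Same-numbered libraries did not deviate together (correlations -0.029 to 0.06 in 12 comparisons). Own number was best for all 4 in 1 comparison, KO against WT with LPS. No pairing by number was thus detected, which cannot exclude shared animals or cultures. The block moved no other count of members by over 1.5 times.

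Leaving out 1 library gave 8 to 9 members for LPS in WT and in KO, 2 to 2 for dexamethasone in each, 7 to 8 for dexamethasone under LPS in WT and 6 to 7 in KO, 7 to 7 and 8 to 9 for LPS on dexamethasone, 3 to 6 and 1 to 2 for the interaction, 0 to 0 for KO against WT in control and with dexamethasone, 2 to 3 with LPS, 6 to 7 with both, 0 to 1 for the difference of the LPS effects and 5 to 7 for that of the dexamethasone effects. The WT shift of the Il10 to Il12b ratio ranged from 3.44 to 4.11, the KO shift from -1.31 to -0.09 and the gap under both treatments from -4.05 to -2.83.

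Over all genes, KO against WT in control called 78 genes, but 121 with the groups alone, 174 in lane 3 and 137 with no filter, and 47 to 51 without KO library 4, WT library 1 or WT library 2. With dexamethasone the 130 became 401, 171 and 201, 75 with the lane term, and 69 to 84 without KO library 3 or 4 or WT library 1, 2 or 3; 78 of the 130 were higher, against 198 of 401 with the groups alone and 85 of 171 in lane 3. With LPS 1468 (673 higher) became 667 with the groups alone and 112 with the lane term (64 higher), with both treatments 8137 became 4834 with the lane term, and the difference of the LPS effects went from 536 to 314 and 113. Depth limits Il23a and Lif, with at most 40 counts over any group, and Il10 in the groups with LPS, with 27 to 48 counts over each.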
